A study of Ovis aries with 40 samples.

Results

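Messenger RNA of 7 genes that are commonly read as marks of B cells (*CD79A*, *CD79B*, *MS4A1*, *CR2*, *CD22*, *BLK* and *PAX5*) was followed in the lung of fetal and term sheep. The genes were taken by their symbols from the tables of read counts, which list 24478 genes, and all 7 were found. The study sequenced proximal and distal lung of American Romney sheep, either wild type (WT) or *CFTR*-/- (labelled CF), at gestational days 65, 80, 100 and 120 and at term (day 147), and asked how the loss of CFTR, the chloride channel that is defective in cystic fibrosis, alters the developing lung. There were 2 libraries for each of the 20 combinations of genotype, region and time point, 40 in all, and the 50-day animals are not analysed here. WT animals were bred, whereas CF animals were cloned by somatic cell nuclear transfer from 1 male fetal fibroblast line in which *CFTR* had been disrupted, so the method of conception and the genotype cannot be told apart. WT term animals were born naturally. Proximal and distal libraries of a replicate came from the same animal, and the labels give both WT replicates at day 100 the same animal, so p-values measure the spread between libraries that are not all separate animals. The labels also give WT day 65 replicate 2 and CF day 100 replicate 2 the same animal, although these differ in genotype and age, and they were placed by their titles.

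B cells carry an antigen receptor made of an immunoglobulin that cannot signal on its own and a pair of membrane proteins, CD79A and CD79B, that pass the signal inwards. BLK is a kinase of the Src family that acts at this receptor. CR2 (CD21) binds complement fragments on antigen and lowers the threshold of the receptor, and it is also found on follicular dendritic cells. CD22 binds sialic acid and restrains the receptor, MS4A1 (CD20) is a membrane protein of mature B cells, and PAX5 is the transcription factor that commits cells to the lineage.

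In the sheep assembly Oar_v4.0 used for the counts, *CR2* lies on chromosome 12 from 4721253 to 4771729 on the plus strand and *MS4A1* on chromosome 15 from 80102419 to 80117584 on the plus strand. *CD79A* lies on chromosome 14 from 50297983 to 50302451 on the minus strand, and *CD22* is on the same chromosome from 45027893 to 45041965 on the plus strand. *CD79B* occupies chromosome 11 from 47498688 to 47502759 on the minus strand. Chromosome 2 holds *PAX5* from 51406263 to 51597189 and *BLK* from 104148652 to 104202931, both on the plus strand. The counts were summed over exons, whose total length ran from 1869 bases for *CD79A* to 10887 bases for *PAX5*, and no exon of a member shared bases with an exon of another gene in the tables.

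The libraries were bulk tissue, labelled as lung epithelial tissue, so fewer cells of a type and less RNA per cell cannot be told apart. Before term, total counts ran from 24670355 to 43700012 in WT (n = 16) and from 85773994 to 103139483 in CF (n = 16). At term they ran from 115937437 to 126749480 in WT (n = 4) and from 117316905 to 119451372 in CF (n = 4). Depth therefore moved with genotype before term and with age in WT, and a count of 3 was worth up to 0.124 CPM (read counts normalized to library size, with TMM factors over the 40 libraries) in WT and up to 0.0348 CPM in CF before term. Of the 280 member counts, 35 were 0. Among the 110 member counts from 1 to 20, 93.6% were even, so a count of 2 may stem from the mates of a single fragment. The lung marker *NKX2-1* was present in every library, at 61.0 to 209 CPM. At term, replicate 2 of CF stood apart in both regions, because it held 140 CPM of *JCHAIN*, the joining chain of secreted antibody, in proximal and 233 CPM in distal lung, against 5.33 to 9.85 CPM in the other 6 term libraries. Its summed CPM of 13 T cell genes was 117 and 170 against 41.2 to 70.0 in the other 6, and that of 5 NK cell genes was 26.9 and 37.4 against 1.85 to 7.70. The calls of the 7 genes and the counts of further lists in CF distal lung between day 120 and term are given with and without this animal.

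The label of the group was checked against its own members first. Before term, the 7 genes did not behave as a unit. *PAX5* had counts of 0 to 12 in the 32 libraries and *MS4A1* reached at most 0.494 CPM, so these defining markers were at or near 0. *CD79A* ran from 0.281 to 1.62 CPM and *CD79B* from 0.0197 to 1.94 CPM. *CD22*, in contrast, stood at 25.6 to 88.4 CPM in WT and 75.3 to 168 CPM in CF. Per kilobase of exon, which allows genes to be compared, *CD22* exceeded *CD79A* 12.5 to 46.9 times in WT and 19.6 to 203 times in CF before term. The level of *CD22* thus did not go with that of the receptor genes, and the group is treated below as 7 named genes and not as a count of B cells.

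**Figure D1:**
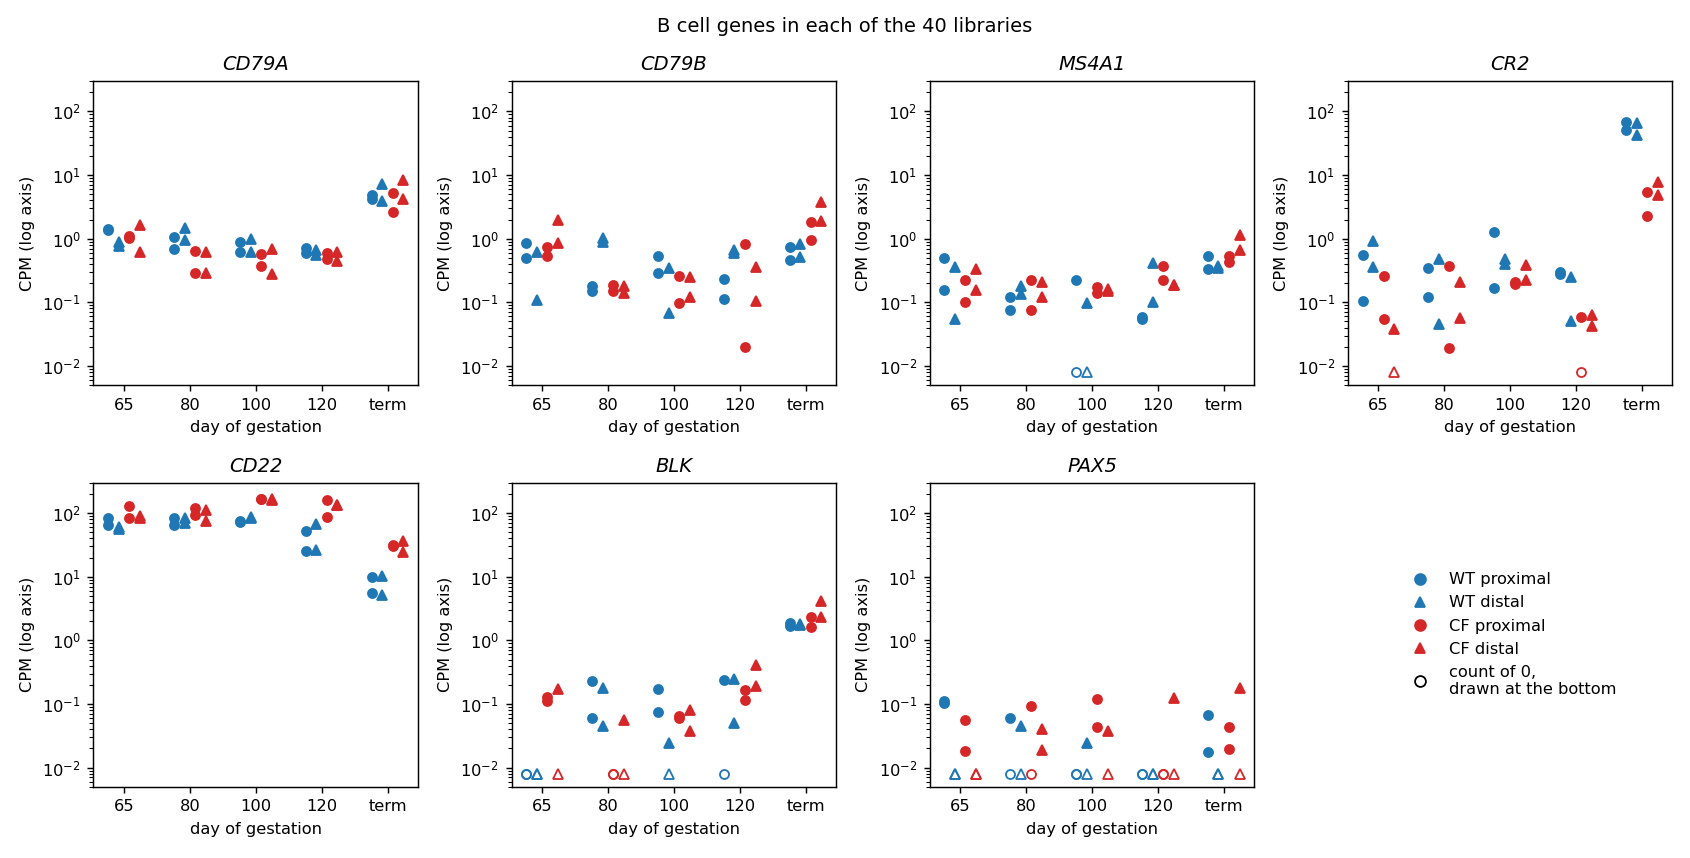
CPM of each of the 7 genes (vertical log axis) in every library against the day of gestation, with WT in blue, CF in red, circles for proximal and triangles for distal lung, and open symbols for counts of 0. *CR2*, *CD79A* and *BLK* lay higher at term than in every earlier library of the same genotype, *CD22* lay lower, and *PAX5* stayed near 0.

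The first question was how the genes changed with gestation. Between consecutive time points up to day 120 no member passed the test in any of the 12 comparisons (edgeR's quasi-likelihood test, with limits of 0.05 on the adjusted p and 0.58 on the size of the log2 fold change). Of the 78 tests of members, 12 had an unadjusted p below 0.05 and DESeq2 called 2 lower. Over all genes edgeR called 0.418% of tests higher and 0.298% lower. Here and below, counts by unadjusted p or by DESeq2 have no share of all genes from the same measure beside them. They cannot be set against the shares called by edgeR. From day 65 to day 120 no member was called either, with 8 of 26 tests at an unadjusted p below 0.05 and 2 lower calls by DESeq2, against 6.47% of all tests called higher and 4.93% lower. The change came at the last interval. From day 120 to term, *CR2*, *CD79A* and *BLK* rose and *CD22* fell in WT lung of both regions, and in CF distal lung *CR2*, *CD79A*, *CD79B* and *MS4A1* rose and *CD22* fell.

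In WT proximal lung, 3 of the 6 members tested were higher at term and 1 was lower, against 11.3% and 8.78% of all genes. WT distal lung gave 3 higher and 1 lower of 6, against 11.8% and 10.5%. In both WT regions *BLK* was among the higher genes. It had at most 8 counts in WT before term and passed the filter on low counts through its term libraries alone, whereas *PAX5* did not pass. The WT counts here and against day 65 were therefore partly set by that filter. In CF distal lung 4 of 7 were higher and 1 lower, against 11.5% and 11.4%, and without term replicate 2 there were 1 and 1 of 7, against 2.94% and 3.05%. CF proximal lung gave 0 calls among 7, with 4 members at an unadjusted p below 0.05, and there 0.0762% of all genes were called higher and 0.279% lower. These shares rested on single libraries, since without day 120 replicate 1 they were 4.16% and 2.34%, and without term replicate 2 they were 0.00493% and 0%. Among the members, *CD22* was called lower when day 120 replicate 1 or day 120 replicate 2 was left out, and no member was called higher with any 1 of the 4 libraries left out. DESeq2 and a single fit of all 40 libraries each called 3 members higher and 1 lower in CF proximal lung. The shares of all genes called in those fits are not given here, so these counts have no background. The median log2 fold change of the members tested was 2.83 and 1.86 in WT proximal and distal lung and 2.81 and 3.40 in CF, beside medians over all genes of 0.06, 0.04, -0.12 and -0.06.

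**Figure D2:**
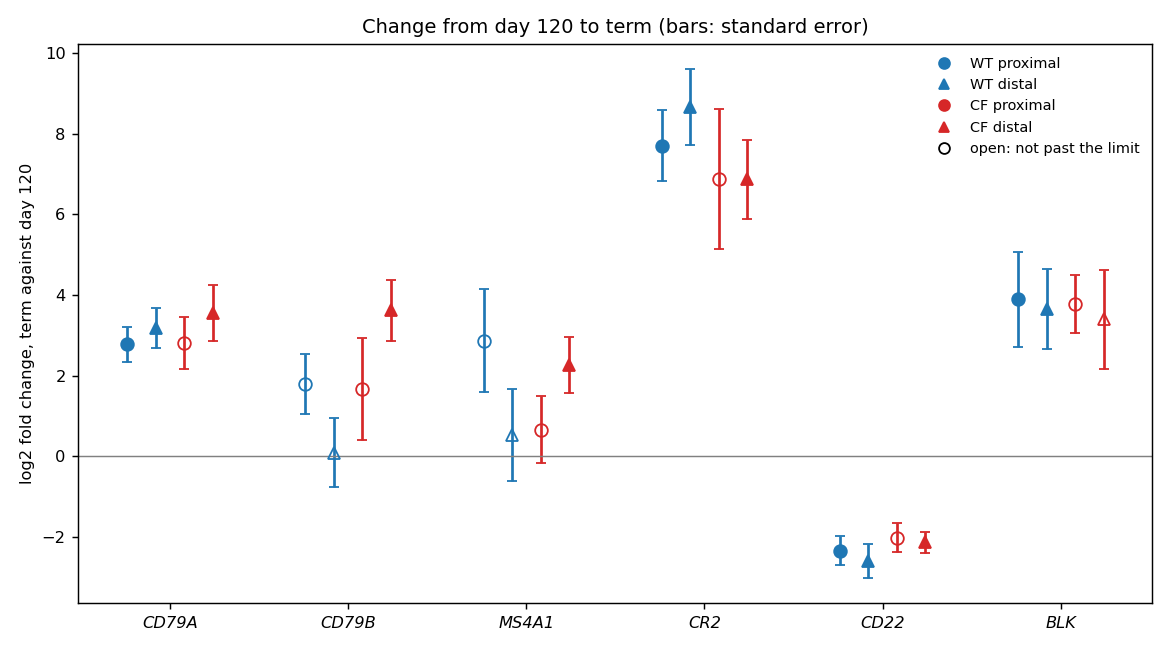
Log2 fold change from day 120 to term (vertical axis) of 6 genes in the 4 combinations of genotype and region, with bars for the standard error and filled symbols where the change passed the test. *CR2* changed most, between 6.87 and 8.66. *CD22* fell in all 4 and passed the test in 3, the exception being CF proximal lung at -2.02. *PAX5*, which was filtered out in WT, is not drawn.

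*CD79A*, the first of the signalling pair, was called higher at term in 3 of the 4 comparisons with day 120. In WT proximal lung its level was 0.587 and 0.718 CPM at day 120 and 4.91 and 4.13 CPM at term, and in WT distal lung 0.661 and 0.550 CPM rose to 3.85 and 7.20 CPM. The CF levels were 0.482 and 0.604 CPM at day 120 and 2.62 and 5.18 CPM at term in proximal lung, and 0.442 and 0.626 CPM at day 120 and 4.22 and 8.37 CPM at term in distal lung. All 8 term libraries were thus above all 8 libraries of day 120, with no overlap. How many of all genes separate in this way is not given, here or in the other statements and figures of overlap. Separation alone is therefore not evidence about the members. The log2 fold change was 2.78 (SE 0.43, adjusted p = 0.00236) in WT proximal, 3.18 (SE 0.50, adjusted p = 0.00354) in WT distal and 3.55 (SE 0.70, adjusted p = 0.0117) in CF distal lung, and 2.81 (SE 0.64, adjusted p = 0.119) in CF proximal lung. The call in CF distal lung was lost without term replicate 2 (2.98, adjusted p = 0.0576) and without day 120 replicate 1 (3.33, adjusted p = 0.0797).

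*CD79B*, its partner, was less regular. It rose in CF distal lung, from 0.105 and 0.355 CPM to 1.92 and 3.76 CPM, by 3.62 on the log2 scale (SE 0.76, adjusted p = 0.0140). That call too was lost without term replicate 2 (3.07, adjusted p = 0.0641) and without day 120 replicate 1 (adjusted p = 0.0775). In WT distal lung the libraries overlapped, with 0.661 and 0.599 CPM at day 120 and 0.524 and 0.825 CPM at term, and the log2 fold change was 0.09 (SE 0.85, adjusted p = 0.921). In WT proximal lung the change was 1.79 (SE 0.74, adjusted p = 0.109) and in CF proximal lung 1.67 (SE 1.26, adjusted p = 0.596), where the day 120 libraries differed widely, at 0.0197 and 0.825 CPM.

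*MS4A1* stayed low at term, at 0.335 to 0.531 CPM in WT and 0.427 to 1.15 CPM in CF, or 40 to 103 counts. It passed the test only in CF distal lung among the 4 comparisons of term with day 120, from 0.189 and 0.188 CPM to 0.675 and 1.15 CPM, with a log2 fold change of 2.26 (SE 0.69, adjusted p = 0.0446). This call did not hold without day 120 replicate 1 (2.27, adjusted p = 0.161), without day 120 replicate 2 (2.23, adjusted p = 0.101) or without term replicate 2 (1.83, adjusted p = 0.164). In the other three the log2 fold change lay between 0.53 and 2.87, with adjusted p from 0.133 to 0.782.

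*CR2* had the largest change among the members in each of the 4 comparisons of term with day 120. Day 120 counts were 10 and 10 in WT proximal and 6 and 2 in WT distal lung, or up to 0.294 CPM, and the term libraries had 51.2 and 68.6 CPM in proximal and 42.6 and 65.7 CPM in distal lung, from 4719 to 8199 counts. In CF the day 120 counts were 6, 0, 4 and 6, and the 4 term libraries had 2.30 and 5.38 CPM in proximal and 4.79 and 7.80 CPM in distal lung. The groups did not overlap in either genotype. The rise was 7.70 (SE 0.88, adjusted p = 6.21e-04) in WT proximal, 8.66 (SE 0.94, adjusted p = 8.17e-04) in WT distal and 6.87 (SE 0.98, adjusted p = 0.00439) in CF distal lung, and these 3 calls held when any of the libraries compared was left out. The value in CF proximal lung was 6.88 (SE 1.74, adjusted p = 0.138).

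*BLK* began from 0 to 0.417 CPM before term and reached 1.66 to 1.86 CPM in the 4 WT and 1.65 to 4.10 CPM in the 4 CF term libraries, with no overlap between term and earlier libraries. Its log2 fold change from day 120 was 3.89 (SE 1.18, adjusted p = 0.0449) in WT proximal and 3.66 (SE 0.99, adjusted p = 0.0314) in WT distal lung. In CF it was 3.78 (SE 0.72, adjusted p = 0.0903) in proximal and 3.40 (SE 1.23, adjusted p = 0.0730) in distal lung. Counts at day 120 were 8 and 0 in WT proximal and 6 and 2 in WT distal lung, and the calls were fragile. In WT proximal lung the call was lost without day 120 replicate 2 (2.88, adjusted p = 0.129), term replicate 1 (3.81, adjusted p = 0.136) or term replicate 2 (3.95, adjusted p = 0.141). In WT distal lung the call was lost whichever of the 4 libraries was left out, with log2 fold changes from 2.82 to 5.09 and adjusted p from 0.0602 to 0.143. Against day 65, when *BLK* was at 0 in all 4 WT libraries, term was at least 21.8-fold higher in proximal (adjusted p = 0.00479) and at least 22.4-fold higher in distal lung (adjusted p = 0.00250), with the floor set at 3 counts per library.

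*CD22* went the other way. In WT proximal lung 52.3 and 25.6 CPM at day 120 became 9.78 and 5.62 CPM at term, and in WT distal lung 66.2 and 26.4 CPM became 10.4 and 5.22 CPM. CF levels fell from 132 and 136 CPM to 36.6 and 24.3 CPM in distal lung, and proximal lung had 159 and 86.6 CPM at day 120 and 30.7 and 31.1 CPM at term. No term library overlapped with the day 120 libraries of its group. The log2 fold change was -2.35 (SE 0.36, adjusted p = 0.00221) in WT proximal, -2.59 (SE 0.42, adjusted p = 0.00401) in WT distal and -2.14 (SE 0.26, adjusted p = 0.00239) in CF distal lung, and -2.02 (SE 0.36, adjusted p = 0.0643) in CF proximal lung. The 3 calls held with each of the libraries left out in turn.

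*PAX5* was not detectable as a trend at this depth. Its count was 0 in 21 of the 40 libraries, and at term it was 2 and 8 in WT proximal, 0 and 0 in WT distal, 2 and 4 in CF proximal and 0 and 16 in CF distal lung. It did not pass the filter on low counts in the WT time courses, and no comparison called it elsewhere.

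Set against day 65 instead of day 120, term gave the calls of *CR2*, *CD79A* and *BLK* higher and *CD22* lower in WT proximal (3 and 1 of 6, against 20.6% and 17.7% of all genes), WT distal (3 and 1 of 6, against 19.5% and 18.0%) and CF distal lung (3 and 1 of 7, against 15.9% and 14.7%). In CF proximal lung 1 of 7 was higher, *BLK* at 4.06 (SE 0.73, adjusted p = 0.0156), and 1 lower, *CD22* at -1.75 (SE 0.36, adjusted p = 0.0194), against 5.78% and 5.83%. Both of these calls depended on single libraries, *BLK* being lost without day 65 replicate 1, day 65 replicate 2 or term replicate 2 (3.95, 4.19 and 3.78) and *CD22* without any 1 of the 4 (-2.04 to -1.39). In CF distal lung, *CD79A* (1.95) and *BLK* (4.80) lost their calls without term replicate 2, and *CD79A* (2.01) also without day 65 replicate 2. In WT proximal lung *CD79A* lost its call without term replicate 1 (1.57). These comparisons share the term libraries with those against day 120. At the study's own limit of 0.001 on the adjusted p, 2 of 26 tests of members between day 120 and term were called higher, both of *CR2* in WT, and 0 lower, against 0.461% and 0.418% of all tests, and between day 65 and term 3 were higher and 2 lower, against 4.15% and 3.44%.

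At term the genes could be ordered per length. In the 4 WT libraries *CR2* was highest, at 7.42 to 11.9 CPM per kb of exon, followed by *CD79A* at 2.06 to 3.85 and *CD22* at 0.980 to 1.95. *BLK* followed at 0.685 to 0.771, then *CD79B* at 0.242 to 0.426, *MS4A1* at 0.161 to 0.256 and *PAX5* at 0 to 0.00615. The ranges of *CD79B* and *MS4A1* overlapped, and those of the other neighbours in this order did not. In CF the order was different, with *CD22* first at 4.57 to 6.87, then *CD79A* at 1.40 to 4.48, *BLK* at 0.682 to 1.70, *CD79B* at 0.496 to 1.94, *CR2* at 0.400 to 1.36, *MS4A1* at 0.206 to 0.553 and *PAX5* at 0 to 0.0164. In CF each of these neighbours overlapped with the next except *CD22* with *CD79A* and *MS4A1* with *PAX5*.

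**Figure D3:**
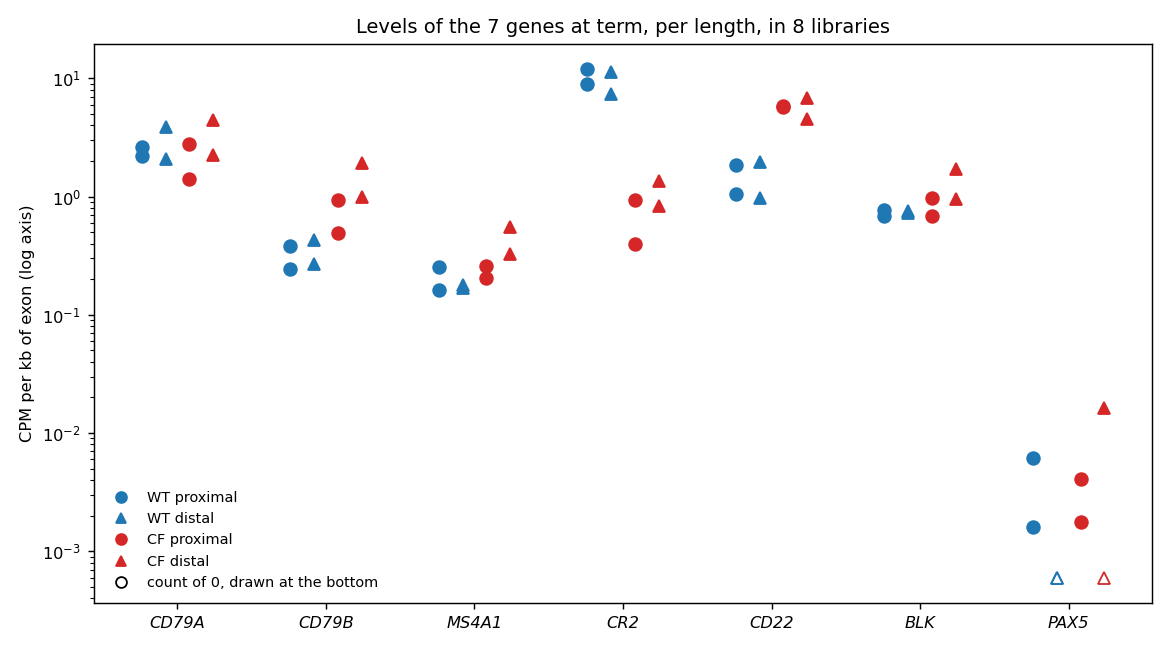
CPM per kb of exon (vertical log axis) of the 7 genes in the 8 term libraries, WT in blue and CF in red, circles for proximal and triangles for distal lung, open symbols for counts of 0. The 4 WT libraries lay above the 4 CF libraries for *CR2* and below them for *CD22*, whereas the genotypes overlapped for *CD79A*.

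Ratios within a library showed the same reordering without a scale shared between libraries. *CR2* over *CD79A* per kb was 2.97 to 5.41 in the 4 WT term libraries and 0.286 to 0.369 in the 4 CF term libraries. *CD79A* over *CD79B* was 6.87 to 9.13 in WT and 2.28 to 2.99 in CF. *CD22* over *CD79A* was 0.254 to 0.947 in WT and 1.02 to 4.11 in CF. For these 3 ratios the libraries of the genotypes did not overlap. *CD79A* over *MS4A1* overlapped, at 10.2 to 22.8 in WT and 6.81 to 10.6 in CF, and the ranges of *CD79A* over *BLK* met, at 2.83 to 5.11 and 2.05 to 2.83. All 5 ratios were formed after the levels had been seen.

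The second question was how CF differed from WT at the same time point. *CD22* was higher in CF at day 120 and term in both regions, *CR2* was lower in CF distal lung at day 65 and term, and the other members were called in none of the 10 comparisons at single time points. At term *CD22* was higher by a log2 fold change of 2.00 in proximal (SE 0.38, adjusted p = 0.00845) and 2.00 in distal lung (SE 0.38, adjusted p = 0.00344). These comparisons called 1 of 7 higher and 0 lower in proximal lung, against 2.60% and 3.48% of all genes, and 1 higher and 1 lower in distal lung, against 7.16% and 7.23%. The lower gene in distal lung was *CR2*, with a log2 fold change of -3.08 (SE 0.76, adjusted p = 0.0149). In proximal lung *CR2* stood at -3.96 (SE 1.16) with an adjusted p of 0.0608, and DESeq2, a single fit of all 40 libraries and counts thinned to equal depth each called it lower there.

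The 4 WT term libraries held 42.6 to 68.6 CPM of *CR2* and the 4 CF term libraries 2.30 to 7.80 CPM, so the groups were far apart in both regions. The distal call was nevertheless lost without WT term replicate 2 (-2.76, adjusted p = 0.0670), without CF term replicate 1 (-2.81, adjusted p = 0.0597) and without CF term replicate 2 (-3.51, adjusted p = 0.0595). For *CD22* the proximal call was lost without WT term replicate 2 (1.66, adjusted p = 0.109), and the distal call held with each library left out. *CD79A* differed by -0.21 (SE 0.49, adjusted p = 0.868) in proximal and 0.21 (SE 0.57, adjusted p = 0.851) in distal lung at term, *BLK* by 0.19 (SE 0.92, adjusted p = 0.945) and 0.87 (SE 1.09, adjusted p = 0.640), and *CD79B* by 1.19 (SE 1.03, adjusted p = 0.577) and 2.09 (SE 0.80, adjusted p = 0.0883). At the study's limit of 0.001 on the adjusted p, 0 of 70 tests of members against WT at single time points were called, beside 0.103% of all tests in each direction. With 2 libraries in a group such standard errors leave wide room, and a p above the limit does not show equal levels.

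**Figure D4:**
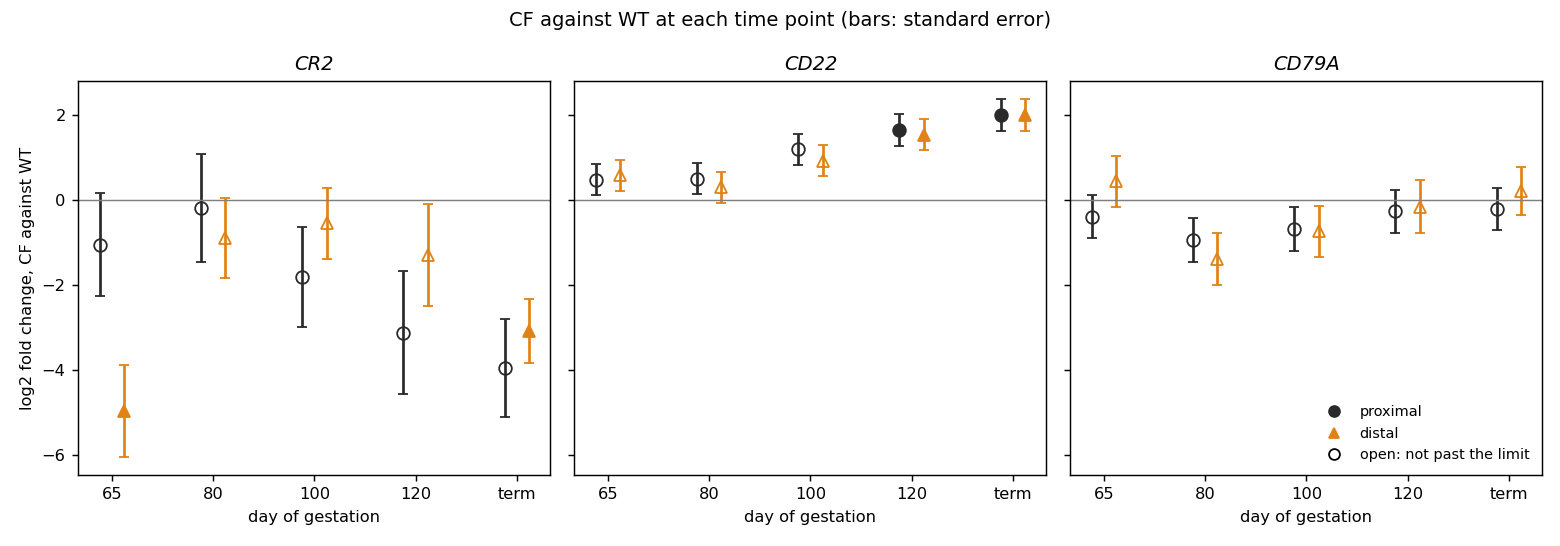
Log2 fold change of CF against WT (vertical axis) at each time point for *CR2*, *CD22* and *CD79A*, circles for proximal and triangles for distal lung, bars for the standard error, filled where the test was passed. *CD22* passed at day 120 and term in both regions, *CR2* at day 65 and term in distal lung, and *CD79A* at none of the 5 time points.

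Before term the same 2 genes were called. *CD22* was higher in CF at day 120, by 1.65 in proximal (SE 0.38, adjusted p = 0.0483) and 1.54 in distal lung (SE 0.37, adjusted p = 0.0287), as 1 of 7 members in each region against 1.10% and 3.18% of all genes. These calls were lost without WT proximal day 120 replicate 1 (2.26) or 2 (1.23) and, in distal lung, without WT day 120 replicate 2 (1.01) or CF day 120 replicate 1 (1.55). Over the mean of the 4 time points before term, *CD22* was higher in CF by 0.95 (SE 0.18, adjusted p = 0.00301) in proximal and 0.84 (SE 0.18, adjusted p = 0.00280) in distal lung, against 10.9% and 11.5% of all genes called higher, and no single library decided these calls. The ranges before term met, since WT reached 88.4 CPM and CF began at 75.3 CPM.

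*CR2* was lower in CF over the mean of the 4 time points in distal lung, by -1.93 (SE 0.52, adjusted p = 0.0112), against 6.48% of all genes. In the same comparison *PTPRC*, a gene of all leukocytes, was lower in CF by -0.73 (adjusted p = 0.0200), a call lost without WT day 65 replicate 2, and 5 of 11 macrophage genes were lower and 1 higher. Their part in the difference was not tested. For *CR2* the call was lost without WT day 80 replicate 1 (-1.33, adjusted p = 0.115) and without WT day 120 replicate 1 (-1.59, adjusted p = 0.102). The proximal value was -1.55 (SE 0.64, adjusted p = 0.107, against 3.21% of all genes called lower). At day 65 the distal comparison was called at -4.97 (adjusted p = 0.0168, against 0.822% of all genes called lower), but it rested on counts of 14 and 34 in WT and 4 and 0 in CF. It was lost after thinning to equal depth (-3.98, adjusted p = 0.0551), without WT day 65 replicate 2 (-4.14, adjusted p = 0.105) and without CF day 65 replicate 2 (-4.04, adjusted p = 0.100). Before term *CR2* had at most 34 counts in WT and 40 in CF, so its differences there rest on low counts.

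Whether the change from day 120 to term differed between the genotypes was tested as an interaction, and no member was called in proximal lung (0 with an unadjusted p below 0.05) or in distal lung (1 with an unadjusted p below 0.05, and 1 called higher by DESeq2), where 0.585% and 1.19% of all genes were called higher and lower in proximal and 4.21% and 5.10% in distal lung. For *CR2* the difference in change was -0.83 (SE 2.01, adjusted p = 0.906) in proximal and -1.78 (SE 1.41, adjusted p = 0.470) in distal lung. For *CD22* it was 0.35 (SE 0.52, adjusted p = 0.819) and 0.45 (SE 0.51, adjusted p = 0.634). The value nearest to the limit was *CD79B* in distal lung, at 3.53 (SE 1.15, adjusted p = 0.0665).

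Proximal and distal lung of the same animals were compared last. No member was called in any of the 10 conditions (3 of 70 tests at an unadjusted p below 0.05, 0 calls by DESeq2), against 9.63e-04% of all tests called higher and 0.00385% lower. None was called in the mean of the conditions (0 at an unadjusted p below 0.05, 0 by DESeq2), against 0.0385% and 0.0144% of all genes. Over the mean of the 10 conditions the log2 difference of distal from proximal lung was -0.02 (SE 0.07) for *CD22*, 0.04 (SE 0.16) for *CD79A*, 0.44 (SE 0.26) for *CD79B* and -0.17 (SE 0.34) for *CR2*.

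**Figure D5:**
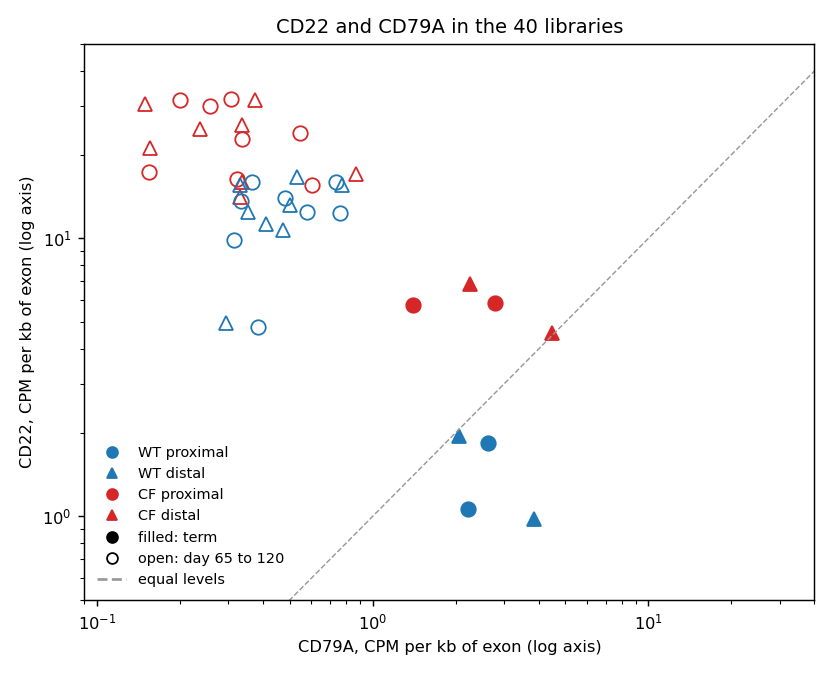
*CD22* against *CD79A*, both as CPM per kb of exon on log axes, in the 40 libraries, open before term and filled at term, with WT in blue, CF in red and a dashed line at equal levels. Libraries before term lie far above the line, the 4 WT term libraries lie below it, and the 4 CF term libraries lie on or above it.

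Across the 40 libraries, which share animals between regions, some of the members split in the same way. On log2 CPM, *CD22* had a correlation of -0.78 with *CD79A* and -0.78 with *CR2*, whereas *CD79A* had 0.76 with *CR2*, 0.70 with *BLK* and 0.68 with *CD79B*. Other pairs were weaker, such as *CR2* with *CD79B* (0.27) and *MS4A1* (0.33), and *CD22* with *CD79B* (-0.42) and *MS4A1* (-0.30). *PAX5* had 0.10 with *CR2*, 0.08 with *CD79A* and 0.06 with *CD22*. Among the 32 libraries before term, *CD79A* kept 0.57 with *CD79B* but had 0.08 with *CR2*, 0.07 with *BLK* and -0.30 with *CD22*, so most of these values were set by the step at term. The 10 genes whose log2 CPM was most like the mean of the 7 members, with correlations of 0.84 to 0.86, included *CLEC4G*, *SUSD3*, *SELPLG*, *THEMIS2*, *LOC101112639*, *IL7R*, *PDK4*, *C7* and *IKZF1*.

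Other genes of B cells gave a mixed account. *EBF1*, a factor of early B cell commitment that stromal cells also express, fell in WT proximal (-1.32, adjusted p = 0.0228) and WT distal lung (-1.44, adjusted p = 0.0433), although 3 of the 4 libraries of each comparison could not be left out without losing the call. *RAG1*, the recombinase of lymphocyte precursors, had 0 counts in all 8 term libraries, and the chemokine *CXCL13*, which draws B cells into follicles, reached at most 0.134 CPM at term. Of 6 genes of early B cell precursors, which other cells also express, 4 were tested, and 1 was higher and 1 lower at term than at day 120 in WT proximal, 1 and 2 in WT distal and 0 and 0 in CF lung of both regions, also in distal lung without term replicate 2. *MME* was the higher gene (1.14 and 1.11) and *CD34* was lower (-1.04 and -0.90) in both WT regions. *ERG* was lower in WT distal lung (-0.62). Each of these calls was lost without 1 or more of the libraries compared. The CXCL13 receptor *CXCR5* was at 1.39 to 3.43 CPM at term and was called in none of the 4 comparisons of term with day 120.

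The counts of further lists from day 120 to term stand beside the shares of all genes given above, which were 11.3% higher and 8.78% lower in WT proximal, 11.8% and 10.5% in WT distal and 11.5% and 11.4% in CF distal lung. Leaving out term replicate 2 in CF distal lung lowered the shares of all genes there to 2.94% and 3.05%, and leaving out day 120 replicate 1 to 1.94% and 3.41%. With 1 library left out, the shares of all genes ran from 5.50% to 9.02% higher and 4.70% to 7.90% lower in WT proximal and from 4.38% to 14.4% higher and 4.25% to 16.4% lower in WT distal lung. Without WT term replicate 2, 6.87% were higher in proximal and 7.01% in distal lung. In CF distal lung 12.8% were higher and 14.1% lower without term replicate 1. In CF proximal lung, where the lists below had 0 calls, 1 gene of receptor signalling, 1 plasma cell gene, 1 survival and homing gene and 4 macrophage genes were higher without day 120 replicate 1.

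Of 16 genes of B cell receptor signalling, all tested, 10 were higher and 0 lower at term than at day 120 in WT proximal, 7 and 0 in WT distal, 6 and 0 in CF distal and 0 and 0 in CF proximal lung, with medians of 1.45, 1.17, 1.15 and 0.82. In CF distal lung 1 was higher without term replicate 2, and 3 without day 120 replicate 1. With 1 library left out, the higher calls ran from 5 to 9 in WT proximal and from 4 to 6 in WT distal lung, the lowest being without term replicate 2 in each. *LYN*, a Src family kinase shared with myeloid cells, rose by 1.62 (SE 0.13, adjusted p = 1.39e-04) in WT proximal, 1.37 (SE 0.15, adjusted p = 7.40e-04) in WT distal and 1.14 (SE 0.23, adjusted p = 0.0123) in CF distal lung, where the call was lost without term replicate 2 (0.87). The phosphatase *PTPN6*, which acts downstream of CD22, rose by 2.44 (adjusted p = 6.05e-04) and 2.07 (adjusted p = 0.00105) in WT proximal and distal lung and by 1.32 (adjusted p = 0.0213) in CF distal lung. The kinase *BTK* rose by 3.65 (adjusted p = 0.00218) in WT proximal, 3.47 (adjusted p = 0.00529) in WT distal and 2.66 (adjusted p = 0.00698) in CF distal lung, where the value was 2.35 without term replicate 2 and the call held. Many genes of this list, *LYN*, *PTPN6*, *SYK* and *BTK* among them, are used by macrophages as well.

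Among 12 transcription factors of the lineage, 4 were higher and 4 lower at term in WT proximal, 2 and 4 in WT distal, 3 and 2 in CF distal and 0 and 0 in CF proximal lung. Higher and lower calls in CF distal lung were 1 and 0 without term replicate 2 and 0 and 1 without day 120 replicate 1. With 1 library left out they ran from 2 to 3 and from 2 to 4 in WT proximal, and in WT distal lung stayed at 2 and ran from 1 to 3. *SPI1*, which directs both myeloid and B cells, rose by 3.99 (adjusted p = 0.00121), 3.17 (adjusted p = 0.00263) and 2.67 (adjusted p = 0.00929) in WT proximal, WT distal and CF distal lung, the last being lost without day 120 replicate 1 (2.28, adjusted p = 0.0606) and 2.02 (adjusted p = 0.0479) without term replicate 2. *BACH2*, a repressor active in resting B and T cells, fell by 1.20, 1.36 and 1.58 on the log2 scale in the same 3 comparisons (adjusted p = 3.95e-04, 0.00608 and 0.00962), the last being lost without term replicate 2 (-1.59, adjusted p = 0.0529) and smaller without day 120 replicate 1 (-1.04, adjusted p = 0.0283).

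Of 9 plasma cell genes, 8 were tested, and 1 was higher and 1 lower at term in WT proximal and in WT distal lung, while CF distal lung had 2 higher and 1 lower and CF proximal lung 0 and 0. The 2 higher genes were *JCHAIN* and *MZB1*, which encodes a chaperone of antibody-secreting cells. *MZB1* rose by 4.06 (SE 1.16, adjusted p = 0.0362), but the value was 0.22 (adjusted p = 0.847) without term replicate 2, which left 1 higher and 1 lower in the list, and without day 120 replicate 1 (3.90) or 2 (4.23) the call was also lost. *PRDM1*, the factor of antibody-secreting cells, which other cells of the lung also use, fell by 1.38 (adjusted p = 0.00288), 1.56 (adjusted p = 0.00280) and 2.18 (adjusted p = 0.00319) on the log2 scale in WT proximal, WT distal and CF distal lung, and without term replicate 2 the last was -2.17 and held. *JCHAIN* rose by 5.14 (SE 1.13, adjusted p = 0.0163) in CF distal lung and was at -0.01 (SE 0.29, adjusted p = 0.984) in WT distal lung. The rise in CF was 1.53 (adjusted p = 0.0492) without term replicate 2 and lost its call without day 120 replicate 1 (4.86, adjusted p = 0.108). Its change differed between the genotypes, by 5.15 (SE 1.16, adjusted p = 0.0155) in distal and 4.68 (SE 1.08, adjusted p = 0.0435) in proximal lung, but without CF term replicate 2 these differences were 1.51 (adjusted p = 0.0795) and 1.68 (adjusted p = 0.200). Leaving out single WT libraries or CF distal day 120 replicate 1 also ended the call, at 4.60 to 4.94. In the same animal *POU2AF1*, a coactivator for immunoglobulin genes, was at 1.62 and 1.96 CPM against 0.127 to 0.325 CPM in the other 6 term libraries, while *CD79A*, *CD79B*, *MS4A1*, *CR2* and *BLK* were each higher in it than in the other CF term animal in both regions.

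Among 15 genes of B cell survival and homing to follicles, 4 were higher and 1 lower at term in WT proximal (13 tested), 4 and 2 in WT distal (13 tested) 5 and 0 in CF distal (14 tested) and 0 and 0 in CF proximal lung (15 tested). In CF distal lung 1 was higher without term replicate 2 and 1 without day 120 replicate 1. With 1 library left out, the higher calls ran from 1 to 2 in WT proximal and from 2 to 5 in WT distal lung. *TNFSF13B*, the survival factor BAFF, rose by 3.53 (SE 0.61, adjusted p = 0.00378) and 3.04 (SE 0.53, adjusted p = 0.00521) in WT proximal and distal lung. It was lower in CF than in WT at term (-3.16, adjusted p = 0.0282 in proximal and -2.12, adjusted p = 0.0315 in distal lung), and both calls were lost whichever of the 4 libraries was left out (-3.64 to -2.43 and -2.47 to -1.74). *FCER2*, a low-affinity receptor for IgE on mature B cells, rose by 2.94 (SE 0.42, adjusted p = 0.00429) in CF distal lung, and each library could be left out. In CF proximal lung its change was 2.81 (SE 0.50, adjusted p = 0.0642), which was not called. In WT it was 0.09 (adjusted p = 0.907) in proximal and 0.62 (adjusted p = 0.346) in distal lung. *CXCR4*, a homing receptor also present on other cells, fell in WT by 1.45 and 1.59 on the log2 scale (adjusted p = 0.00204 and 0.00207) and was higher in CF than in WT at term, by 1.84 (SE 0.27, adjusted p = 0.00151) in proximal and 2.27 (SE 0.27, adjusted p = 1.82e-04) in distal lung. Between the genotypes at term this list had 1 higher and 1 lower of 15 in proximal and 2 higher and 1 lower of 14 in distal lung, against 2.60% and 3.48% and 7.16% and 7.23% of all genes.

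Genes of other cells moved at the same step. Of 11 macrophage genes, 9 were higher at term in WT proximal, WT distal and CF distal lung and 0 in CF proximal lung, with 4 in CF distal lung without term replicate 2 and 4 without day 120 replicate 1. Their summed CPM at term was 1020 to 2106 in WT (n = 4) and 320 to 516 in CF (n = 4), against 89.9 to 222 before term. Between the genotypes at term, 7 of 11 were lower in CF in proximal lung (1 to 5 with 1 library left out, the fewest without WT term replicate 2) and 6 were lower and 1 higher in distal lung (4 to 7 lower). Over all genes 3.48% were lower in proximal (1.03% to 4.64% with 1 library left out) and 7.23% in distal lung (3.18% to 11.1%). The pan-leukocyte gene *PTPRC* rose by 3.47 (SE 0.39, adjusted p = 6.05e-04) in WT proximal, 2.45 (SE 0.36, adjusted p = 0.00261) in WT distal and 2.86 (SE 0.48, adjusted p = 0.00703) in CF distal lung, the last being lost without day 120 replicate 1 (2.77) and 1.98 (adjusted p = 0.0289) without term replicate 2, and the sum of 6 leukocyte genes was 618 to 1293 CPM in WT and 523 to 940 CPM in CF at term. Of 13 T cell genes, 3 were higher in WT proximal, 3 of 12 tested in WT distal, 6 of 13 in CF distal and 0 of 13 in CF proximal lung. In CF distal lung 1 was higher without term replicate 2, 0 without day 120 replicate 1 and 10 without term replicate 1. In WT distal lung the count ran from 0 to 4, the lowest without day 120 replicate 2. *CD3E*, a chain of the T cell receptor complex, was at 7.80 to 12.6 CPM in WT and 7.87 to 33.0 CPM in CF at term. It rose in CF distal lung by 2.81 (SE 0.52, adjusted p = 0.00936), or 1.90 (adjusted p = 0.0457) without term replicate 2, a call lost without day 120 replicate 1 (2.52, adjusted p = 0.0668). Of the follicular dendritic cell genes, 3 were in the tables, *CXCL13*, *ICAM1* and *MFGE8*, and the last pair is also used by other cells of the lung. Their summed CPM at term was 475 to 543 in WT and 216 to 310 in CF, against 88.4 to 324 and 85.5 to 427 before term. From day 120 to term 1 of 2 tested was higher in each region of WT and 0 in CF, with and without term replicate 2 in distal lung. CF against WT at term gave 0 of 3 in proximal and 1 of 2 lower in distal lung (0 without CF term replicate 2). In the distal interaction 1 of 2 was lower. Of 9 genes of erythroid precursors, 0 were higher and 5 lower from day 120 to term in WT proximal and WT distal lung, 3 lower in CF distal and 0 in CF proximal lung, with medians of -3.11, -3.94, -0.28 and -1.49. The lower calls ran, when single libraries were left out, from 3 to 4 in WT proximal and were 4 in WT distal lung, and 2 were lower in CF distal lung without term replicate 2. Of 10 genes of lung epithelium, 8 were higher in WT proximal, 7 in WT distal, 6 in CF distal (5 without term replicate 2, 3 without day 120 replicate 1) and 0 in CF proximal lung. The part of these other cells in the changes of the 7 genes was not tested.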

How the data were processed

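RNA of proximal and distal lung was sequenced from cDNA libraries primed with oligo(dT) as 100 bp paired-end reads. The authors aligned the reads to Oar_v4.0 with STAR, counted them on genes by featureCounts 1.6.3, and deposited the raw counts, neither normalized nor pooled. The annotation release, strand setting and treatment of mates are not given in the sources used here. Columns were mapped to the 40 libraries by their titles.

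From these counts, genes were kept by filterByExpr (count minimum 10, total minimum 15) and scaled by TMM in edgeR 4.0.16 (R 4.3.3). With 1 mean per condition, glmQLFit was run on the 10 libraries of a time course and on the 20 of a region, and regions were compared over 40 libraries with the animal as a block, since a replicate's regions came from the same animal. Effects were tested by glmQLFTest and p-values adjusted by Benjamini-Hochberg across the 18186 to 20779 genes of a fit. Calls needed an adjusted p up to 0.05 and a log2 change of at least 0.58 either way. The SE given is the size of the log2 fold change divided by the square root of the F value of its test. It is not a separate estimate. In all, 49 comparisons were made. Levels are CPM with TMM factors over the 40 libraries, divided by the exon length in kb where genes were compared, and correlations used log2 CPM (prior count 0.5). The fits were tested on simulated data with known changes. The floor of 3 counts covers counting error only.

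The 7 genes and the further lists were chosen with earlier results of these data known. Named besides the 7 were *EBF1*, *POU2AF1*, *JCHAIN*, *RAG1*, *CXCL13*, *CXCR5*, *CD3E*, *PTPRC*, *NKX2-1* and up to 3 genes per B lineage list with the smallest adjusted p among those called between day 120 and term or between genotypes at term, and the 10 genes most alike to the mean of the 7. The per-list part of this rule took 27 distinct genes, and not all genes that the rule names are reported here. The ratios at term were formed after the values were seen. Alternatives were RLE size factors, no filter, DESeq2 1.42.0, the study's adjusted p limit of 0.001, thinning to equal depth, a replicate block, a single fit of all 40 libraries, summing the WT libraries of day 100, leaving out each library, and CPM without TMM or without mitochondrial and the 10 most abundant genes. List counts without each library were added after the data were seen. A second table that repeats the CF counts was not used.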

Additional observations from a re-analysis of the deposited data

How the results depend on the processing

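No direction turned under any alternative run. At the study's adjusted p limit of 0.001, *CR2* kept its rise from day 120 in WT proximal and distal lung, so that 1 of 3 higher calls and 0 of 1 lower calls stayed there, 0 of 4 and 0 of 1 in CF distal lung, and for term against day 65 there were 1 of 3 higher in WT proximal, WT distal and CF distal lung, 0 of 1 higher and 0 of 1 lower in CF proximal and 0 of 1 lower in CF distal lung. All calls between genotypes, 1 gene each, became 0. DESeq2 raised the counts in CF proximal lung to 3 higher and 1 lower for term against day 120 and 3 higher for term against day 65, as a single fit of all 40 libraries did. DESeq2 also called 2 in place of 0 lower between consecutive time points up to day 120 and between day 65 and 120, 1 in place of 0 lower in CF in proximal lung at term, at single days before it and over their mean, 2 in place of 1 lower at single days before term and 2 in place of 1 higher at term in distal lung, and 1 in place of 0 higher for the distal interaction. The single fit and thinning each called 1 in place of 0 lower at term in proximal lung. Thinning and no filter gave 2 and 1 in place of 0 lower for day 120 against 65, and thinning gave 0 in place of 1 higher (proximal) and lower (distal) at single days before term. RLE factors and the summed day 100 libraries moved no count by over 1.5 times. Calls of single genes were lost for *BLK* from day 120 to term in WT proximal lung with the day 100 libraries summed (3.88) and in the single fit (3.90), and in WT distal lung with both (3.63 and 3.67) and after thinning (3.48), for *MS4A1* in CF distal lung in the single fit (2.26) and with no filter (2.25), and after thinning for *CD22* in CF proximal lung at day 120 (1.61) and *CR2* in CF distal lung at day 65 (-3.98).

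With a replicate block, the call of *CD22* in CF at day 120 in proximal lung was lost (0 in place of 1), as was that of *MS4A1* in CF distal lung at term (2.24, adjusted p = 0.0542). Replicate numbers mark different animals at different ages, so they share only a number, and the differences between replicates correlated between regions from -0.28 to 0.84. Without the animal block, region gave 0 calls as well.

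With 1 library left out in turn, higher calls from day 120 to term in CF distal lung ran from 1 to 4, and from day 65 from 1 to 3. The following moved between 0 and 1: lower calls from day 120 and higher calls from day 65 in CF proximal lung, lower calls in day 120 against 65, CF against WT higher at term in proximal and lower at term in distal lung, lower over the mean before term in each region, higher at single days before term in each region and lower in distal lung, and the distal interaction. Lower calls from day 65 in CF proximal lung were 0 in all 4. Of 180 such values of single genes, 37 lost their call. Without TMM, 13 of 140 levels moved by over 1 SD, and 22 of 140 with the other denominator.

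Depth limits what can be said of *PAX5*, *MS4A1*, *BLK* and *CR2* before term, where levels rest on low counts, and with 2 libraries a group, 1 library decides many calls.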

Other observations

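*CD22* alone, a pattern looked at after its opposite course had been seen, was most like *LOC105616540*, *SUFU*, *LOC105615111*, *RIMKLB*, *RBM26*, *GPR173*, *PTPRD*, *SEMA6C*, *GATA5* and *FGD1*, with correlations of 0.89 to 0.93 on log2 CPM over the 40 libraries. These include an inhibitor of hedgehog signalling (*SUFU*), an orphan receptor (*GPR173*) and a receptor phosphatase (*PTPRD*), and no gene of another list fixed here was among them.

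*CR2* alone was most like *LOC101123578*, *FMNL1*, *PTPRC*, *LOC101120775*, *TPD52*, *TNFSF8*, *WWP1*, *DCAF11*, *LOC101102230* and *NCKAP1L*, with correlations of 0.85 to 0.90. For *CD79A* the 10 nearest genes, at 0.87 to 0.89, included *P4HB*, *CORO1A*, *SELPLG*, *C1QA*, *C1QB*, *CD53*, *C5AR1* and *TNFAIP8L2*, among which *C1QA*, *C1QB* and *C5AR1* are known from myeloid cells. These lists describe likeness over libraries that share animals and a step at term.

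Between the genotypes at term, 1 of 16 genes of B cell receptor signalling was higher in CF and 4 lower in proximal lung and 1 and 1 in distal lung, against 2.60% and 3.48% and 7.16% and 7.23% of all genes. With 1 library left out the lower calls in proximal lung ran from 0 to 2, and were 0 without WT term replicate 2 or CF term replicate 1. *CD72*, an inhibitory receptor of B cells, was higher in CF by 2.53 (adjusted p = 0.0458) in proximal and 2.59 (SE 0.61, adjusted p = 0.0115) in distal lung, the distal call being lost without WT term replicate 1 or CF term replicate 2 (1.94 to 2.98 with 1 library left out). No value with a library left out is given here for the proximal call. *SYK*, the kinase that binds the CD79 pair and is shared with myeloid cells, was lower in CF by 2.74 on the log2 scale in proximal (-2.74, adjusted p = 0.0131) and 1.65 in distal lung (-1.65, adjusted p = 0.0145), lost in distal lung without WT term replicate 2 (-1.29, range -2.57 to -1.14 with 1 library left out) and in proximal lung without WT term replicate 2 or either CF term library (-3.13 to -1.97).

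Of 8 plasma cell genes tested between the genotypes at term, 1 was higher in CF and 1 lower in proximal and 2 and 1 in distal lung, beside the same shares of all genes (2.60% and 3.48%, 7.16% and 7.23%). Without CF term replicate 2 the counts were 0 and 0 in proximal and 0 and 1 in distal lung. *JCHAIN* was higher in CF by 3.33 (adjusted p = 0.0245) in proximal and 4.24 (adjusted p = 0.00573) in distal lung, but 0.31 (adjusted p = 0.797) and 0.60 (adjusted p = 0.347) without CF term replicate 2. Its calls were also lost without WT term replicate 1 in distal (3.98) and without either WT term library in proximal lung (3.25 and 3.42). *MZB1* was higher in distal lung by 4.24 (adjusted p = 0.0267), but 0.36 (adjusted p = 0.889) without CF term replicate 2, and lost its call without either WT term library (3.67 and 5.09). *XBP1*, a factor of secretory cells, was lower in CF by 0.99 in proximal (-0.99, adjusted p = 0.0192) and 1.19 in distal lung (-1.19, adjusted p = 9.44e-04), and the proximal call was lost without CF term replicate 2 or either WT term library (-1.10 to -0.85).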
